A study of Mus musculus with 6 samples.

Results

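Wild-type Malt1 was compared with a control vector in E0771, a mouse mammary carcinoma cell line, after contact with T cells. The comparison covers 4 of the 6 libraries of the series, chosen by their titles: 2 of cells carrying the control vector (Vector) and 2 of cells expressing wild-type Malt1 (Malt1_WT). The other 2 libraries, of cells expressing the PD mutant of Malt1 (Malt1_PD; the labels do not spell out PD), are set beside them. Activated CD8 T cells were added to the cells of all 6 libraries for 12 hours, with 3 effectors for each target cell, then washed off. The tumour cells were detached, plated anew and lysed 6 hours later, so no group without T cells enters. Each form of Malt1 is a cell population of its own. The labels do not say how the construct was delivered, which promoter drove it, whether a population was 1 clone, or whether the libraries of a group stem from cultures grown apart. The p-values rest on the spread between libraries, possibly a technical one, and an effect of Malt1 and a difference between populations cannot be told apart.

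MALT1 is a scaffold and a protease. With BCL10 and a CARD protein it forms a complex that activates NF-kB, and its protease domain cleaves regulators of that pathway and of mRNA stability. Cd274 encodes PD-L1, a surface protein that inhibits T cells through PD-1 and is commonly raised in tumour cells by interferon-gamma from T cells.

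Total counts per library were 14045390 to 19962014, and 14675 of 28063 genes passed the filter on low counts and were tested. A floor of 3 counts equals 0.150 to 0.214 CPM, the count scaled to library size with TMM factors, and covers counting error only. The vimentin gene Vim and the keratin gene Krt8 were abundant in every library. Some other epithelial and mesenchymal markers were low in the Vector and Malt1_WT libraries. Cdh1, the E-cadherin gene, had 2 to 8 counts there, the keratin gene Krt18 4 to 12 and the fibronectin gene Fn1 1 to 2. Markers of other cell types were mixed. For fibroblasts, Pdgfra had 1801 to 2920 counts and Lum 0 to 5. For myeloid cells, Cd14 had 119 to 206 and Adgre1 0 to 2. Of 12 T cell markers looked for, 9 had a row, and their summed counts were 11 and 8 in Vector against 3 and 18 in Malt1_WT, with Trbc2 at 0 in all 4 of these libraries. In RNA from whole cultures, fewer cells of a type and less RNA per cell cannot be told apart. The libraries of a group differed along gene length, as given further down.

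Cd274 was the 1 gene that edgeR called higher in Malt1_WT after adjustment. It had 75 and 78 counts in the Vector libraries and 6585 and 10932 in the Malt1_WT libraries, which are 4.22 and 4.37 CPM against 469 and 545 CPM. The groups were far from overlapping, and both Malt1_PD libraries, at 4.87 and 3.57 CPM, lay at the level of Vector. The mean went from 4.30 ± 0.104 to 507 ± 54.0 CPM (SD, n = 2 each). That is a 118-fold rise, 6.88 ± 0.16 (SE) on the log2 scale. The quasi-likelihood test of edgeR, adjusted by the Benjamini-Hochberg method over all genes, gave a p of 1.24e-06. Cd274 was 1 gene called higher among 14675 tested, 0.00681% of them, and 0 were called lower, 0.00%. At an unadjusted p under 0.05, edgeR placed 484 genes higher and 557 lower, and DESeq2, another count model, called 12 higher and 16 lower after adjustment. The edgeR calls numbered 19 and 31 when Vector replicate 1 was left out, and 468 and 131 when Vector replicate 2 was. The same test set Malt1_WT 6.91 ± 0.16 log2 units above Malt1_PD for Cd274 (edgeR, Benjamini-Hochberg adjusted p = 1.28e-06), and that was 1 gene of 14675, 0.00681%, called between those groups. The groups differ in Malt1 mRNA as well, as described below.

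**Figure D1:**
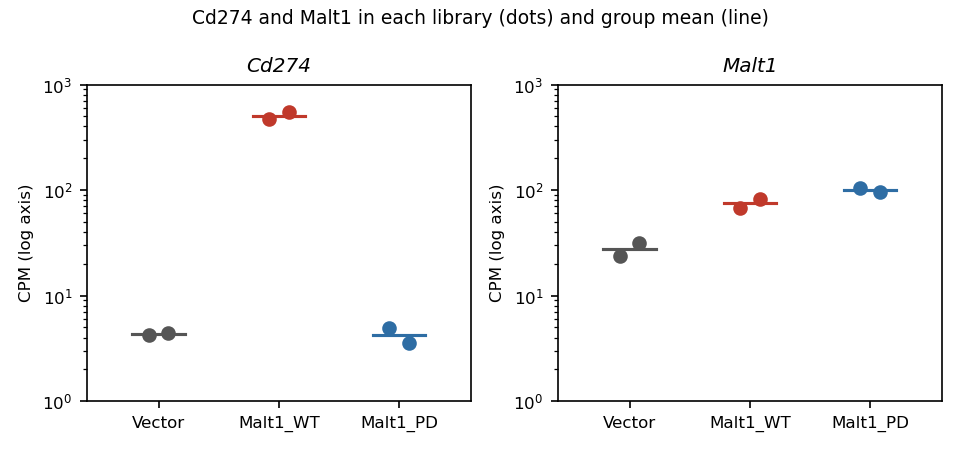
Level of Cd274 and Malt1 in each library (dots, CPM on a log axis) with the mean of each group (line). Both Malt1_WT libraries stand at 469 and 545 CPM of Cd274, against 3.57 to 4.87 CPM in the 4 other libraries, while Malt1 is higher in both groups given a Malt1 form.

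Scaled by gene length as well as depth (RPKM, CPM per kilobase of gene), Cd274 moved from the low end to the top of the expression range. Its RPKM level was 1.17 and 1.21 in Vector, where it ranked 11463 and 11398 among the 14675 genes. In Malt1_WT the RPKM level was 129 and 150.5, at ranks 323 and 248. It thus stood among the most abundant mRNAs of these cells per length.

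Cd274 lies on chromosome 19 (29367455 to 29388095 in GRCm38, plus strand), and no other gene of the table overlaps it. Plgrkt, which encodes a plasminogen receptor, runs the other way from a start 65 bases upstream in the GENCODE annotation, so both genes share 1 intergenic stretch. The 47 bases between the annotated start of Plgrkt and the RefSeq start of Cd274 (chr19:29367391-29367437, GRCm38.p6, plus strand) are shown because 1 of the 2 genes that flank them moved and the other did not pass the test.
Cd274 upstream: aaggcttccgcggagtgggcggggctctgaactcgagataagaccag
Plgrkt stood at 13.2 and 14.1 CPM in Vector and 12.7 and 11.4 CPM in Malt1_WT, a log2 fold change of -0.18 ± 0.13 (SE). Within 500 kb on either side of Cd274, 13 genes were tested and 0 were called, where 0.00681% of all genes tested were. Their log2 fold changes lay between -0.44 and 0.21 with a median of 0.00. Jak2, the kinase of the interferon-gamma receptor, is among them, with a mean of 28.6 CPM in Vector and 27.9 CPM in Malt1_WT. In the 250 bases before the RefSeq start of Cd274, neither strand held the letters TTCNNNGAA of a STAT element, GAAA and GAAA 2 bases apart of an IRF element, GGG and CC 5 bases apart of an NF-kB element, or TGANTCA of an AP-1 element. Those letters occur in 7.02%, 2.98%, 45.8% and 6.75% of the 32851 RefSeq windows of that length.

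The listed genes that are known to act on Cd274 or beside it did not pass the test. Over all 14675 genes tested, Cd274 alone was called (0.00681%), so 0 calls in a short list tell little about its members. Genes whose libraries did not overlap between the groups are given in brackets, upward and then downward. Over all genes, 15.5% and 17.1% were separated in this way. Of 16 transcription regulators of Cd274, 0 were called (4 and 1 separated). Their log2 fold changes lay between -0.13 and 0.22 around a median of 0.01, against a median of 0.00 over all genes tested. Irf1, an interferon-induced transcription factor gene, stood at 0.09. Of 15 genes for the turnover and trafficking of PD-L1, 0 were called (0 and 5 separated). Their range was -0.19 to 0.18 and their median -0.03. The 21 interferon-gamma response genes that were tested had a median of 0.01 with Cd274 as the 1 called (4 and 4 separated). Cxcl10, a T cell chemokine gene, stood at 20.9 and 17.3 CPM in Vector and 14.5 and 15.0 CPM in Malt1_WT (-0.37 ± 0.14). The 19 class I antigen presentation genes had a median of -0.04 (2 and 3 separated). The 15 genes of interferon and JAK-STAT signalling had a median of -0.07 (2 and 6 separated), with 0 called in either list. The 11 tested checkpoint ligands other than Cd274 had 0 called (1 and 4 separated) and a range of -0.39 to 0.26.

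Malt1 mRNA (chromosome 18, 65430938 to 65479067 in GRCm38) was 23.8 and 31.3 CPM in Vector, 67.2 and 82.1 CPM in Malt1_WT, with Malt1_PD highest at 106 and 95.7 CPM. The groups did not overlap, and the order Vector, Malt1_WT, Malt1_PD held for every library. Malt1_WT stood 2.71-fold above Vector, a log2 fold change of 1.44 ± 0.15 (SE) that did not pass edgeR's Benjamini-Hochberg threshold (adjusted p = 0.0920). Over the 12 alternative settings the adjusted p of edgeR, DESeq2 or limma ranged from 2.9e-65 to 0.621, and 7 of the 12 put Malt1 past the threshold, among them those without Vector replicate 1 (1.26) and without Vector replicate 2 (1.66). A replicate block, which fits the replicate number as a term, also put it past the threshold, at 1.44 (edgeR, Benjamini-Hochberg adjusted p = 0.0111). A gene count does not separate mRNA of the cell's own gene from that of a construct. Malt1 is 11735 bases long in the table, and in both groups its lower value was in replicate 1, the library with fewer counts of long genes. Of the 13 other tested genes of the complex, 0 were called, and Casp8 had the smallest p (-0.23 ± 0.10). The 13 tested genes for protease substrates of MALT1 had 0 called, with log2 fold changes between -0.13 and 0.22. Over all genes tested, Cd274 alone was called (0.00681%).

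Beyond Cd274 and Malt1, genes were ranked by the gap, the distance in log2 CPM (prior count 2) between the nearest libraries of the 2 groups when both libraries of a group lie on 1 side of both of the other. By this rule 2281 genes, 15.5% of those tested, were separated upward and 2504, 17.1%, downward. With 2 libraries against 2, many genes separate by the random order of libraries alone. These shares therefore do not show that so many genes differ between the groups. The gap was small for most of them, with a median of 0.10 upward and -0.10 downward. A gap of at least 0.5 log2 units, a factor of 1.41, was reached by 159 genes upward (1.08%) and 153 downward (1.04%), nearly equal numbers. Many of these were genes of few counts, since 35 and 40 of them had a mean log2 CPM of at least 1. Among the 6255 genes with a mean of 5 or more, 4 genes upward and 4 downward kept such a gap. Separation is a description and no test, and none of the ranked genes other than Cd274 passed edgeR's threshold.

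**Figure D2:**
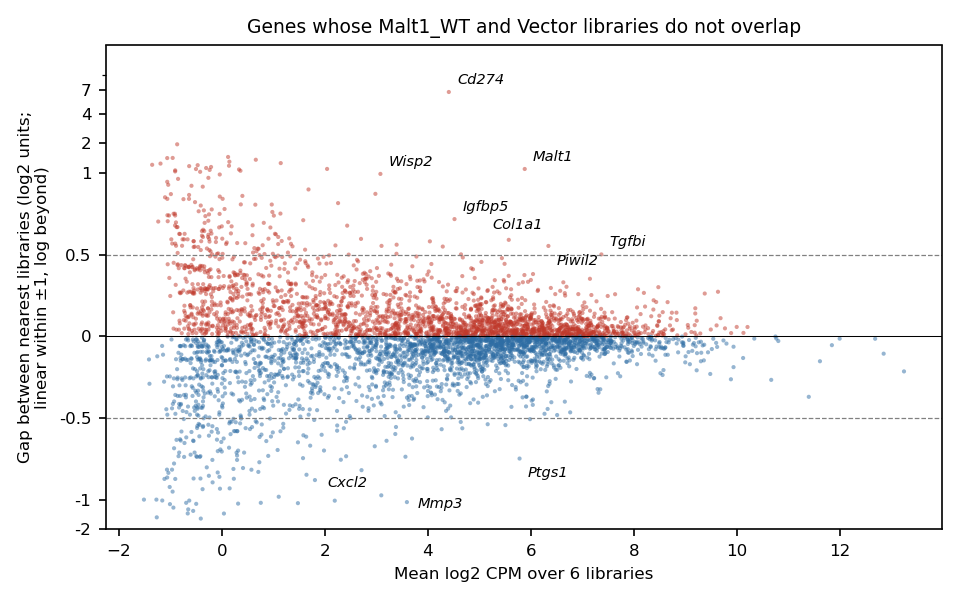
Gap between the nearest Vector and Malt1_WT libraries (log2 units, linear within ±1 and logarithmic beyond) against the mean log2 CPM of the gene, for the 4785 separated genes. Cd274 stands alone at a gap of 6.71, and wide gaps become few as the level rises.

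The 12 widest gaps upward among named genes whose mean log2 CPM was 1 or more belonged to Cd274, Chil1, Orm1, Malt1, Wisp2, Antxr1, Lbp, Kctd14, Anxa8, Igfbp5, Skida1 and Sh3tc1. The rank ended at Sh3tc1 with a gap of 0.68, and Amd2 followed at 0.62. The level bound used the mean over all 6 libraries, so a gene low in 1 group can pass through the groups where it is high. Among such genes were Anxa8 and Chil1, with means of 0.870 and 0.927 CPM in Vector. Another was Tom1l1, ranked downward below, with 1.34 CPM in Malt1_WT. Without Cd274 the log2 fold changes of these genes were 0.77 to 1.63, and their edgeR p-values after Benjamini-Hochberg adjustment 0.0920 to 0.540.

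Orm1, Lbp and Chil1, which encode secreted proteins, were among the genes ranked upward. Orm1, the gene of alpha-1-acid glycoprotein, stood at 2.20 and 2.18 CPM in Vector and at 4.84 and 4.89 CPM in Malt1_WT. Lbp, which encodes the lipopolysaccharide-binding protein, stood at 5.12 and 4.99 CPM against 11.7 and 9.47 CPM. Chil1, a chitinase-like secreted glycoprotein gene, had 18 and 15 counts in Vector and 45 and 52 in Malt1_WT, 1.01 and 0.840 CPM against 3.20 and 2.59 CPM. Each of the 3 genes was about 2 to 3 times as abundant in both Malt1_WT libraries, with log2 fold changes of 1.15 ± 0.22, 1.06 ± 0.20 and 1.63 ± 0.34 (SE). The Malt1_PD libraries were also above Vector, at 6.52 and 5.47 CPM for Orm1, 10.1 and 7.67 CPM for Lbp and 4.05 and 2.73 CPM for Chil1. In the list of acute-phase and innate defence genes, 15 were tested and 0 called, with 6 separated upward and 4 downward (15.5% and 17.1% of all genes were) and a median log2 fold change of 0.17. C3, the central complement gene, was far more abundant, with 224 and 308 CPM in Vector and 379 and 437 CPM in Malt1_WT (0.62 ± 0.14), and S100a8, a calprotectin subunit gene, went the other way at 20.9 and 17.3 against 12.7 and 11.5 CPM (-0.66 ± 0.16). The list therefore held members on both sides.

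Wisp2, Igfbp5, Antxr1 and Anxa8 were among the other genes ranked upward. Wisp2, also called CCN5, a secreted matricellular protein gene, stood at 4.90 and 4.43 CPM in Vector and 10.5 and 9.87 CPM in Malt1_WT, a log2 fold change of 1.13 ± 0.17. Igfbp5, which encodes a secreted binder of insulin-like growth factors, stood at 11.5 and 15.4 CPM against 25.4 and 33.0 CPM (1.12 ± 0.17). The levels were 2.19 and 2.17 times those of Vector. The libraries of a group lay closer together than the groups did, which the ranking by the gap favours. Antxr1, a receptor that binds collagen and the anthrax toxin, had 37 and 37 counts in Vector and 56 and 86 in Malt1_WT (0.99 ± 0.23). Anxa8, an annexin gene, rested on 9 and 22 counts in Vector and 30 and 44 in Malt1_WT, so its log2 fold change of 1.31 ± 0.40 is among the least precise here. Its mean log2 CPM over the 6 libraries was 1.01, raised by Malt1_PD at 3.99 and 3.57 CPM.

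The collagen and matrix list held 0 calls. Like all gene lists here, it was chosen with earlier results of these data known. The shares of separated genes in the lists are therefore descriptions and no test. Of 21 genes tested, 18 had a log2 fold change above 0, 10 were separated upward and 2 downward, and the median was 0.14. Over all 14675 genes tested, 7287 lay above 0, and 15.5% were separated upward and 17.1% downward. Col1a1, a chain of type I collagen, stood at 31.0 and 36.4 CPM in Vector and 54.8 and 61.3 CPM in Malt1_WT. Tgfbi, a matrix protein gene induced by TGF-beta, stood at 133 and 135 CPM against 191 and 199 CPM, with a gap of 0.50 at a high level. Acta2, the smooth muscle actin gene of myofibroblasts, stood at 35.2 and 32.2 CPM against 56.2 and 48.0 CPM. All 3 had non-overlapping groups and log2 fold changes of 0.79 ± 0.11, 0.54 ± 0.08 and 0.62 ± 0.11. Dcn, the gene of the proteoglycan decorin, lay on the other side at 9.85 and 12.5 CPM against 6.05 and 6.13 CPM (-0.87 ± 0.17). Of 11 YAP and CCN target genes, 0 were called, 7 were separated upward and 1 downward, beside the same 15.5% and 17.1% of all genes, and the median was 0.16. Of 20 TGF-beta pathway genes, 0 were called, 9 were separated upward and 3 downward, against that same background, and the median was 0.12.

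The 12 widest gaps downward belonged to Mmp10, Mmp3, Ifi205, Tom1l1, Cxcl2, Misp, Urah, Csgalnact1, Cavin2, Ptgs1, Fam213a and Arhgap6. The last, Arhgap6, had a gap of -0.74 and the next gene, Kcnab3, -0.73, so the edge of the rank is arbitrary. Their log2 fold changes were -1.45 to -0.88, and their edgeR p-values after Benjamini-Hochberg adjustment 0.0920 to 0.546.

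**Figure D3:**
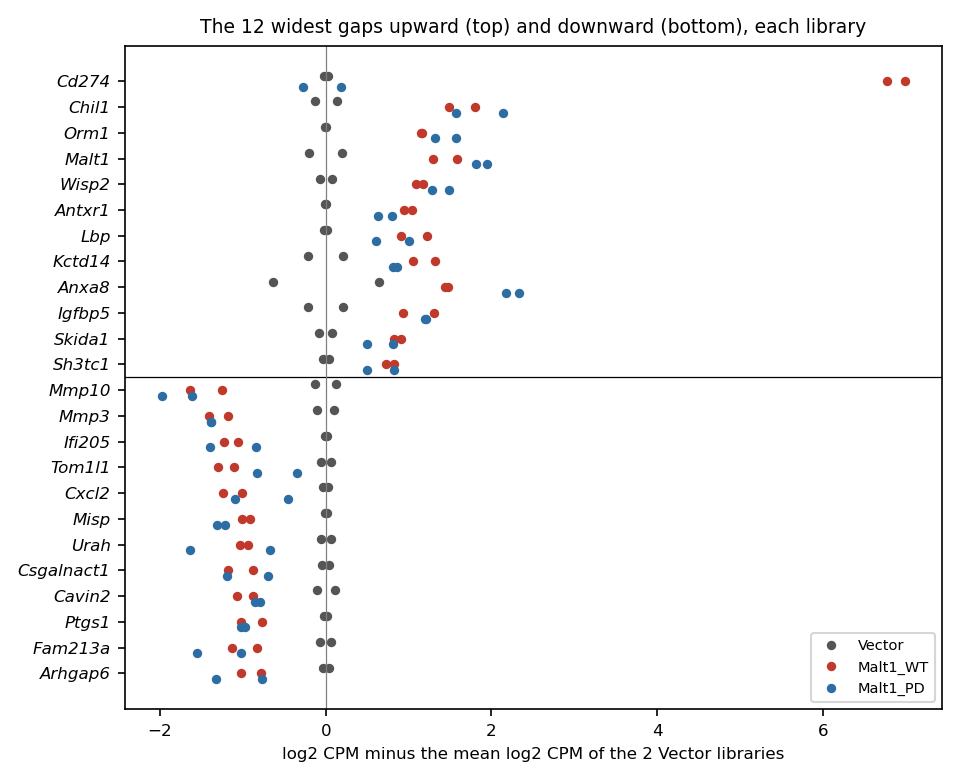
Log2 CPM of each library minus the mean of the 2 Vector libraries for the genes of the 12 widest gaps upward and the 12 downward. For Cd274 the Malt1_PD libraries sit with Vector, and for the other 23 genes every Malt1_PD library lies on the same side of the Vector mean as Malt1_WT.

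Mmp10 and Mmp3 encode stromelysin-2 and stromelysin-1, secreted proteases that degrade matrix, and are neighbours on chromosome 9 (Mmp3 at 7445822 to 7455975, Mmp10 at 7502352 to 7510240 in GRCm38, both on the plus strand). Mmp3 stood at 23.9 and 20.6 CPM in Vector, 9.82 and 8.33 CPM in Malt1_WT, with Malt1_PD at 8.48 and 8.50 CPM. Mmp10 stood at 5.12 and 6.11 CPM in Vector, 2.35 and 1.80 CPM in Malt1_WT, with Malt1_PD at 1.83 and 1.43 CPM. Both Vector libraries were above all others for both genes. The log2 fold changes of Malt1_WT against Vector were -1.30 ± 0.15 for Mmp3 (edgeR, Benjamini-Hochberg adjusted p = 0.0920) and -1.45 ± 0.26 for Mmp10. The 250 bases before the RefSeq start of each gene (chr9:7445572-7445821 and chr9:7502092-7502341, GRCm38.p6, plus strand) are shown because both neighbours stood lower in both Malt1_WT libraries, with the AP-1 letters TGANTCA in capitals.
Mmp3 upstream: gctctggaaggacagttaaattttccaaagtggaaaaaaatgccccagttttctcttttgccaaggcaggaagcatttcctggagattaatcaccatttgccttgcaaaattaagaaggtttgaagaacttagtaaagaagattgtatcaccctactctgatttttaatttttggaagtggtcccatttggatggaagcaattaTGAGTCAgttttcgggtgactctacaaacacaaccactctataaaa
Mmp10 upstream: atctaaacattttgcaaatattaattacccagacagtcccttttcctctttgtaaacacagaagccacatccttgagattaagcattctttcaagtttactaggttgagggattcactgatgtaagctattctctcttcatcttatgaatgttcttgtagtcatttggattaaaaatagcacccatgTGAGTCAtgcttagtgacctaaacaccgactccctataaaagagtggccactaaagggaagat
Each window held 1 match, beginning 46 bases before the start of Mmp3 and 63 before that of Mmp10, and 0 matches to the STAT, IRF and NF-kB letters given above. A match of letters is a description of the window, and binding was not measured. In the list of matrix metalloproteinases and their inhibitors, 13 genes were tested, 0 were called, 3 were separated upward and 7 downward (all genes: 15.5% and 17.1%), and the median was -0.20. Mmp13 and Mmp12, named here after their values were seen, also stood below -1 in log2 fold change, at 1.29 ± 0.154 against 0.548 ± 0.0708 CPM and 0.786 ± 0.156 against 0.377 ± 0.0304 CPM (SD, n = 2 each), near the floor. Mmp2, the gelatinase A gene, lay on the upper side at 75.1 and 83.5 CPM against 105 and 109 CPM (0.44 ± 0.09).

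Of the tested chemokine and cytokine genes, Cxcl2 was the 1 among the 12 widest gaps downward. Cxcl2, a neutrophil chemokine gene, stood at 12.8 and 13.3 CPM in Vector, 6.48 and 5.53 CPM in Malt1_WT, with Malt1_PD at 6.14 and 9.51 CPM, a log2 fold change of -1.13 ± 0.22 for Malt1_WT. Il6, the interleukin-6 gene, stood at 37.7 and 30.5 CPM in Vector and 21.6 and 18.3 CPM in Malt1_WT (-0.78 ± 0.15), with Malt1_PD at 14.2 and 16.5 CPM. Csf3, which encodes G-CSF, a growth factor of granulocytes, stood at 29.8 and 27.1 CPM against 15.7 and 18.2 CPM (-0.74 ± 0.13). Its Malt1_PD libraries stood at 14.0 and 15.3 CPM. For all 3 the Vector libraries were above both Malt1_WT libraries. Of 21 chemokine and cytokine genes tested, 0 were called, 5 were separated upward and 9 downward, and the median was -0.19. For this list and those that follow, the shares over all genes tested were 15.5% upward and 17.1% downward. Of 26 NF-kB target genes, 0 were called, 5 were separated upward and 10 downward, with a median of -0.08. The NF-kB subunits and inhibitors, 11 genes, had 0 called and a range of -0.25 to 0.17. Of 15 mRNAs targeted by Regnase-1 or Roquin, RNA-binding proteins that MALT1 cleaves, 0 were called, 1 was separated upward and 7 downward, and the median was -0.13.

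Prostaglandin synthesis had members below Vector at its first steps. Ptgs1, which encodes cyclooxygenase-1, stood at 86.0 and 84.0 CPM in Vector, 41.9 and 50.0 CPM in Malt1_WT, with Malt1_PD at 41.9 and 43.1 CPM. Pla2g4a, the gene of the phospholipase that releases arachidonic acid, had 552 and 667 counts in Vector and 278 and 421 in Malt1_WT, means of 34.2 ± 4.45 and 20.4 ± 0.853 CPM (SD, n = 2 each). The groups did not overlap for either gene, with log2 fold changes of -0.88 ± 0.10 and -0.74 ± 0.12. Ptgs2, the inducible cyclooxygenase-2 gene, stood at 6.87 and 8.63 CPM against 4.41 and 6.53 CPM (-0.48 ± 0.23). All 6 tested genes of the list had a log2 fold change below 0, 0 were called, 5 were separated downward (17.1% of all genes were) and the median was -0.30. Ptges, a terminal prostaglandin E synthase gene, stood at -0.10 ± 0.07.

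The other genes ranked downward came from several functions. Ifi205, of the HIN-200 family of DNA sensors and an uncertain count because its relatives are near-identical, stood at 7.43 and 7.56 CPM in Vector and 3.20 and 3.59 CPM in Malt1_WT. Cavin2, a component of caveolae, stood at 6.81 and 7.90 against 3.99 and 3.49 CPM. Csgalnact1, an enzyme gene of chondroitin sulfate synthesis, stood at 10.4 and 9.86 against 4.48 and 5.53 CPM. Arhgap6 stood at 18.9 and 17.9 against 9.04 and 10.7 CPM. That both Malt1_WT libraries lay below both Vector libraries for all 4 follows from the ranking rule. Tom1l1, Misp, Urah and Fam213a had mean levels of 3.06 to 5.64 CPM in Vector and 1.34 to 2.89 CPM in Malt1_WT. The spans of Csgalnact1, Arhgap6, Tom1l1, Urah and Ptgs1, introns included, overlap those of other genes of the table. Whether exons overlap was not checked, and no source used here states the strand setting of the counting. It is thus not known whether reads of the partner genes enter these counts.

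At these high levels, a mean log2 CPM of 5 or more, the separated genes with a gap of at least 0.5 were Malt1, Col1a1, Piwil2 and Tgfbi upward and Ptgs1, Cyth4, Apobr and Slc9a3r1 downward. Piwil2, a PIWI protein of the germline piRNA pathway, stood at 57.6 and 63.8 CPM in Vector and 93.6 and 101 CPM in Malt1_WT (0.68 ± 0.09). Cyth4, a guanine nucleotide exchange factor gene of ARF GTPases, stood at 54.9 and 60.2 against 35.7 and 37.6 CPM (-0.65 ± 0.10). Apobr, a lipoprotein receptor gene that overlaps Cln3 and Il27 on the other strand, stood at 47.9 and 45.3 against 30.5 and 31.2 CPM (-0.59 ± 0.09). Slc9a3r1, which encodes the scaffold NHERF1, stood at 87.4 and 80.4 against 56.5 and 54.7 CPM (-0.59 ± 0.09). Malt1_PD lay on the same side of Vector for these genes. It stood at 89.8 and 90.6 CPM for Piwil2, 46.8 and 41.8 for Cyth4, 31.4 and 32.0 for Apobr and 52.5 and 56.0 for Slc9a3r1. With Malt1, Col1a1, Tgfbi and Ptgs1, these 8 genes had 423 to 3991 counts in each Vector and Malt1_WT library.

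The comparisons of Malt1_WT and of Malt1_PD with Vector share the 2 Vector libraries, so a deviation of that pair enters both. The direct contrast of Malt1_WT with Malt1_PD does not use them. For the 23 ranked genes other than Cd274, that contrast gave log2 differences of -0.80 to 0.34 with 0 called by edgeR (lowest Benjamini-Hochberg adjusted p of 1.00). Anxa8 stood at -0.80 ± 0.34 and Tom1l1 at -0.63 ± 0.31, Mmp3 at 0.09 ± 0.16, Ptgs1 at 0.11 ± 0.10 and Igfbp5 at -0.07 ± 0.16 (SE). A missed threshold does not show that the 2 forms act alike. For Cxcl2 the 2 Malt1_PD libraries, 6.14 and 9.51 CPM, spanned a wider range than the Malt1_WT pair.

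The 5 lists that follow held 0 calls each, and their separated genes are to be read against 15.5% upward and 17.1% downward of all genes tested. Of 28 type I interferon-stimulated genes, 4 were separated upward and 10 downward around a median of -0.04, with the mitochondrial nucleotide kinase gene Cmpk2 at 49.3 and 44.6 CPM in Vector and 63.9 and 71.3 CPM in Malt1_WT (0.53 ± 0.10). Of 15 ERK feedback and ETS target genes, 1 was separated upward and 7 downward around a median of -0.17, with the ERK phosphatase gene Dusp6 at 103 and 99.3 against 78.6 and 72.4 CPM (-0.42 ± 0.08). Of 20 AP-1 and immediate early genes, 3 were separated upward and 5 downward (median -0.10), with the transcription factor gene Klf4 at 25.7 and 27.2 against 37.3 and 38.8 CPM (0.53 ± 0.09). Of 28 cholesterol and fatty acid synthesis genes, 0 were separated upward and 11 downward (median -0.09), and Pmvk, which encodes phosphomevalonate kinase, stood at -0.39 ± 0.13. Of 24 glycolysis and hypoxia genes, 11 were separated upward and 2 downward (median 0.05), with Egln3, an oxygen-sensing prolyl hydroxylase gene, at 0.27 ± 0.07.

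The stress, death and cell cycle lists had medians of -0.08 to 0.01 and held 0 calls. The 24 tested genes of the integrated stress response and of unfolded proteins had a median of -0.08, with 3 separated upward and 9 downward. The 17 p53 targets stood at -0.01 (3 and 5), the 21 NRF2 genes at 0.01 (5 and 2). The 27 apoptosis and death receptor genes stood at -0.07 (6 and 8) and the 25 cell cycle genes at -0.01 (5 and 5). Over all genes, 15.5% were separated upward and 17.1% downward. Gdf15, a stress cytokine gene, stood at 18.9 and 17.3 CPM in Vector and 11.2 and 10.8 CPM in Malt1_WT (-0.72 ± 0.14), and Ripk3, a necroptosis kinase gene, at 41.0 ± 3.36 against 54.9 ± 2.68 CPM (SD, n = 2 each, 0.42 ± 0.10). The IGF list, 6 genes, had a median of 0.19, with Irs2, an insulin receptor substrate gene, at 5.74 and 6.22 against 9.18 and 11.0 CPM (0.76 ± 0.16). The 8 lipid uptake genes had a median of 0.13, with Fabp4, a fatty acid-binding protein gene, at 264 and 201 against 161 and 134 CPM (-0.66 ± 0.14). The 13 epithelial and mesenchymal genes had a median of 0.01, the 13 mitochondrially encoded mRNAs 0.00 and the 6 endothelial, fibroblast and adipocyte markers 0.04. In wider lists of blood cell markers, 3 T cell genes (Lck, Lag3 and Coro1a), 3 myeloid genes and 1 B cell gene were tested and stood at medians of -0.33, -0.33 and -0.04.

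**Figure D4:**
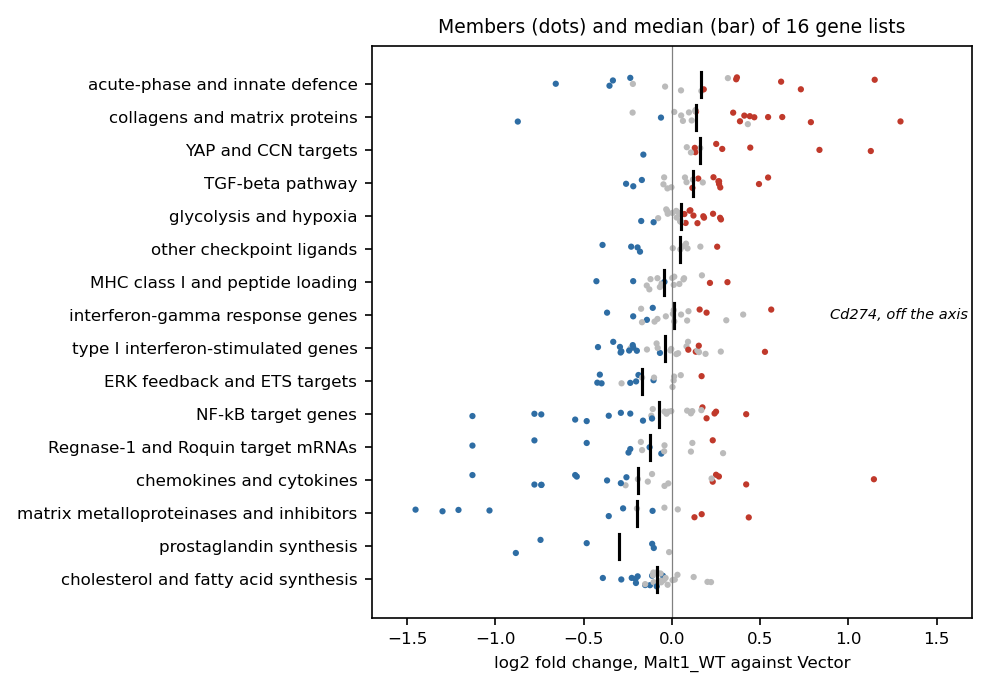
Log2 fold change of Malt1_WT against Vector for the tested members of 16 gene lists (dots), with the list median (bar). Red and blue dots are genes separated upward and downward, grey dots overlap, and Cd274 at 6.88 lies off the axis; the matrix metalloproteinase, chemokine and prostaglandin medians of -0.20, -0.19 and -0.30 lie below 0.

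The 2 Vector libraries differed from each other along gene length. In Vector, replicate 1 minus replicate 2 had a median of 0.34 log2 units in the shortest of 10 length classes and -0.35 in the longest, and in Malt1_WT 0.18 and -0.17. In Malt1_PD the medians were -0.01 and 0.01. Genes of 10136 bases or more took 9.78% of the counts of genes above a mean log2 CPM of 3 in the first Vector library and 12.8% in the second, and 11.0% and 12.6% in the Malt1_WT libraries. With this trend removed from each library, edgeR called 26 genes higher (0.177%) and 29 lower (0.198%), all of them separated in the data as scaled at first. DESeq2 without that step called 12 (0.0818%) and 16 (0.109%), and 24 of the genes were called by both, 43.6% of the first set and 85.7% of the second.

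**Figure D5:**
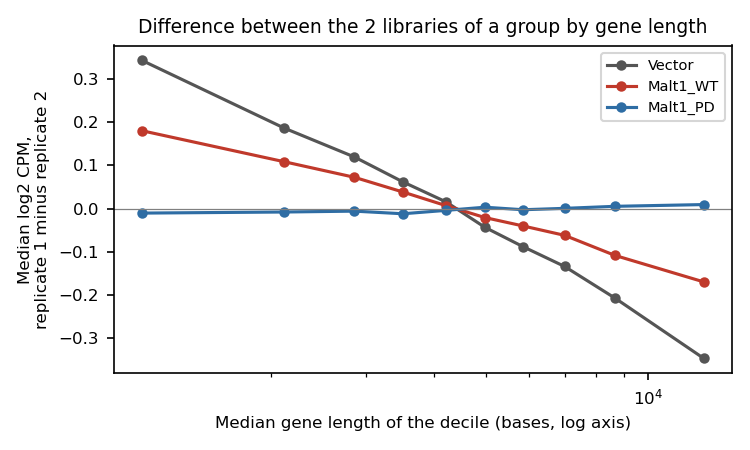
Median difference in log2 CPM between replicate 1 and replicate 2 of each group in 10 classes of gene length (log axis). Vector falls from 0.34 to -0.35 and Malt1_WT from 0.18 to -0.17, while Malt1_PD stays between -0.01 and 0.01.

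Across the 13 settings tried, the first fit included, 20 genes were called in at least 6, of which 10 lay higher and 10 lower in Malt1_WT, and Cd274 was the gene called in all 13. The settings refit the same libraries, so being called in several is no independent support. The first fit, DESeq2's size factors, limma-voom and the fit of the 4 libraries alone called Cd274 only. The fits without a Malt1_WT library did not call the others of the 20 genes either. Calls of those others thus came from the remaining settings, among them the fits without a Vector library. The others of the 20 genes that lay higher were Malt1, Wisp2, Igfbp5, Col1a1, Tgfbi, Acta2, Piwil2, Tex19.1 and Tex19.2. Tex19.1 and Tex19.2, germline genes and near-identical neighbours whose reads may be split between them, stood at 36.3 and 31.9 against 52.0 and 50.6 CPM and at 21.4 and 17.0 against 33.0 and 30.4 CPM. Those that lay lower were Mmp3, Ptgs1, Pla2g4a, Cyth4, Apobr, Slc9a3r1, Il13ra1, Upp1, Osbp2 and Spp1. Spp1, the osteopontin gene and the most abundant of them, stood at 3445 and 3120 CPM in Vector and 2413 and 2276 CPM in Malt1_WT (-0.49 ± 0.07). All 20 genes had both Malt1_WT libraries on 1 side of both Vector libraries. Apart from Cd274, they were not called in the first edgeR fit. DESeq2, also without the length step, called each of them. It is 1 of the 13 settings by which the 20 genes were picked, so its calls are part of the selection and add no support.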

How the data were processed

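The 6 libraries were made with a directional kit and sequenced as paired reads of 150 bases, per the labels' protocols. The authors deposited 1 table of whole-number counts per gene, not normalised, with a gene length column, and per the submitters' processing notes used Trim Galore 0.6.0, STAR 2.7.3a, featureCounts 1.6.3 and genome build GRCm38.p6. Annotation version and strand setting: not given in the sources used here. A further 6 columns of log2 RPKM, some with repeated names, were not used. Of 28063 identifiers, 28056 matched GENCODE M21 (GRCm38), which gave coordinates and restored 25 symbols that had become dates.

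Members, gene lists and settings were chosen with earlier results of these data known. Genes kept by filterByExpr (14675) entered glmQLFit and glmQLFTest of edgeR 4.0.16 with TMM factors (R 4.3.3), all 6 libraries in 1 fit, 3 residual degrees of freedom, dispersion 0.0101, and called at a Benjamini-Hochberg adjusted p under 0.05. Standard errors were the log2 fold change divided by the root of the quasi-likelihood F. CPM and RPKM were computed from the counts. Named were Malt1, Cd274, the 12 widest gaps in each direction (mean log2 CPM of at least 1, no predicted symbol) and up to 3 members of each of 36 lists (608 genes) by smallest p, not all of which are printed. Alternatives were DESeq2 1.42.0 (Wald test, or its size factors), no filter, limma-voom (limma 3.58.1), the 4 libraries alone, a replicate block, a lowess of span 0.3 on gene length removed as an offset, and leaving out libraries. Leaving out both replicate 1 libraries was chosen after seeing the data. The scripts were tested on simulated data. Upstream sequences come from RefSeq (GRCm38.p6), which held 14 of the 24 ranked genes.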

Additional observations from a re-analysis of the deposited data

Results flagged for a closer look

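Cd274 differed between the groups given a Malt1 form: Malt1_WT stood 6.91 ± 0.16 log2 units (SE) above Malt1_PD by edgeR (Benjamini-Hochberg adjusted p = 1.28e-06), and all 11 alternatives that hold both groups kept this past the threshold, between 6.80 and 7.02. Both Malt1_PD libraries had more Malt1 mRNA than both Malt1_WT libraries, 106 and 95.7 against 67.2 and 82.1 CPM, and 3.57 to 4.87 CPM of Cd274 against 469 and 545 CPM. Whether the populations differ in another way was not tested.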

How the results depend on the processing

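Cd274 stayed past the threshold in all 12 alternatives (log2 fold change 6.77 to 6.99). The number of genes called did not hold: it was 1 higher and 0 lower with DESeq2's size factors, limma-voom and the 4 libraries alone, but 52 and 61 without the filter on low counts, 12 and 16 with DESeq2's test, and 26 and 29 with the length trend removed. Leaving out 1 library gave 1 to 468 higher and 0 to 131 lower, with 19 and 31 without Vector replicate 1 and 468 and 131 without Vector replicate 2, and leaving out both replicate 1 libraries gave 434 and 502. There, a lone library is assumed to vary like the other groups. Replicates that share a number deviated together between Vector and Malt1_WT (r = 0.68 over genes) and not with Malt1_PD (-0.01 and 0.03). The labels give no shared source for a number, so the reported values use no block. A replicate block gave 4 higher and 2 lower, with Malt1 past the threshold at 1.44 (edgeR, Benjamini-Hochberg adjusted p = 0.0111). Malt1 was also past the threshold at 1.45 without the filter and with DESeq2's test, at 1.41 with the length trend removed and at 1.39 without both replicate 1 libraries, and spanned 1.26 to 1.66 when 1 library was left out. Separated genes were 3615 higher and 4923 lower without the filter, and 4480 to 5700 and 4395 to 5844 with 1 library left out, where separation is easier by construction. Gaps of at least 0.5 were 769 and 846 without the filter, 546 to 813 and 565 to 680 with 1 library left out, and 1323 and 1064 without both replicate 1 libraries. Among other named genes, none of them called, 6 values changed sign: Coro1a (-0.67 to 0.024 when 1 library was left out) without Vector replicate 1, Pax5 (-0.31 to 0.30) without Vector replicate 2 or Malt1_WT replicate 1, Cdh5 (-0.35 to 0.92) without Malt1_WT replicate 2, and Cd68 to 0.039 and Lag3 to -0.16 without both replicate 1 libraries. The cause was not tested. With 2 libraries a group and 3 residual degrees of freedom, a difference that was not called may lie below what this depth and spread can show.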
